A study of Arabidopsis thaliana with 24 samples.

Results

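The genes described here rose after 1 h of red light in Arabidopsis thaliana seedlings that had lost phytochrome A or phytochrome B. They barely responded in seedlings that had lost both. They are 79 of the 22746 probe sets on the array (a probe set is a group of short oligonucleotides that reads 1 transcript or a few close ones), counted without the array's control probe sets. Of these 79 members, 31 are paired with 1 gene in the probe table and 48 are unnamed there. RNA of whole dark-grown seedlings, with root, hypocotyl and cotyledon and an age of 4 days, was read on Affymetrix arrays. Seedlings either stayed dark or received 1 h of continuous red light at 680 nm and a fluence rate of 8 µmol m-2 s-1. The genotypes were wild type, phyA (no phytochrome A), phyB (no phytochrome B) and phyAphyB (neither), each with 3 dark and 3 red-light biological replicates, 24 arrays in 8 groups. The sources used here give no alleles, parental strains or number of lines per mutant, and the dark wild type seedlings were the control of every dark comparison. The labels name no loss of the other phytochromes (C, D and E) in any genotype. In whole seedlings, fewer cells of a type and less RNA per cell cannot be told apart.

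Phytochromes are photoreceptors that red light converts to an active form and far-red light converts back. The active form enters the nucleus, where it lowers the level and activity of the PIF transcription factors and of the COP1 and SPA proteins, and so starts the change from dark growth to light growth. Phytochrome A accumulates in dark-grown seedlings and is degraded in light, whereas phytochrome B is stable in light and is the main red-light receptor of green plants. A gene that either phytochrome can turn on keeps its response in each single mutant and loses it in the double mutant, and the question the 4 genotypes address is which red responses behave so.

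The members were chosen by measured values, so those values are given as a description and are not tested. The response is the mean log2 signal of the 3 red arrays minus that of the 3 dark arrays of a genotype. Membership required a wild type response of at least 0.9, a mean wild type red log2 signal of at least 7.6, and the 3 wild type red arrays all above the 3 dark ones. The first 3 criteria left 258 probe sets. The response in phyA and in phyB each had to be at least 55% of that in wild type, and the response in phyAphyB at most 25% of it. Of the 258, 243 met the phyB limit, 113 met the phyA limit, 106 met both, and 82 also met the limit in phyAphyB. HYH, SNZ and AT5G15950 were among the 82 and were left out by name. GI and UGT78D2 were named for leaving out as well and did not meet the criteria, GI with a wild type response of 0.87 and UGT78D2 with a phyA response of 0.92 against 1.95 in wild type. All 79 members passed the filter on dim probe sets used for the tests below, and the mean dark wild type signal of 4 members, all unnamed, lay under the 40th percentile of every array (97.4 to 127.2).

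Over the 79 members the median wild type response was 1.26, a 2.4-fold rise, with a range from 0.91 to 3.67. The median response was 0.99 in phyA, 1.34 in phyB and 0.15 in phyAphyB. Over all 15085 tested probe sets the same medians were -0.00 in wild type, 0.00 in phyA, -0.03 in phyB and -0.01 in phyAphyB. As a share of each member's own wild type response, phyA kept a median of 69% (range 56 to 122), phyB 95.1% (57.8 to 165) and phyAphyB 10.3% (-23.3 to 24.5). Over the 258 probe sets that met the first 3 criteria, members included, the median shares were 49.8% in phyA, 88.9% in phyB and 10.1% in phyAphyB. Of these 258, 214 met the limit in phyAphyB, so a low share there was common to red-induced probe sets. The response was smaller in phyA than in phyB for 62 of the 79 members, and it was at or above the wild type response for 30 members in phyB and 6 in phyA. The limits of the rule fix the low ends of the first 2 ranges and the high end of the third.

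**Figure D1:**
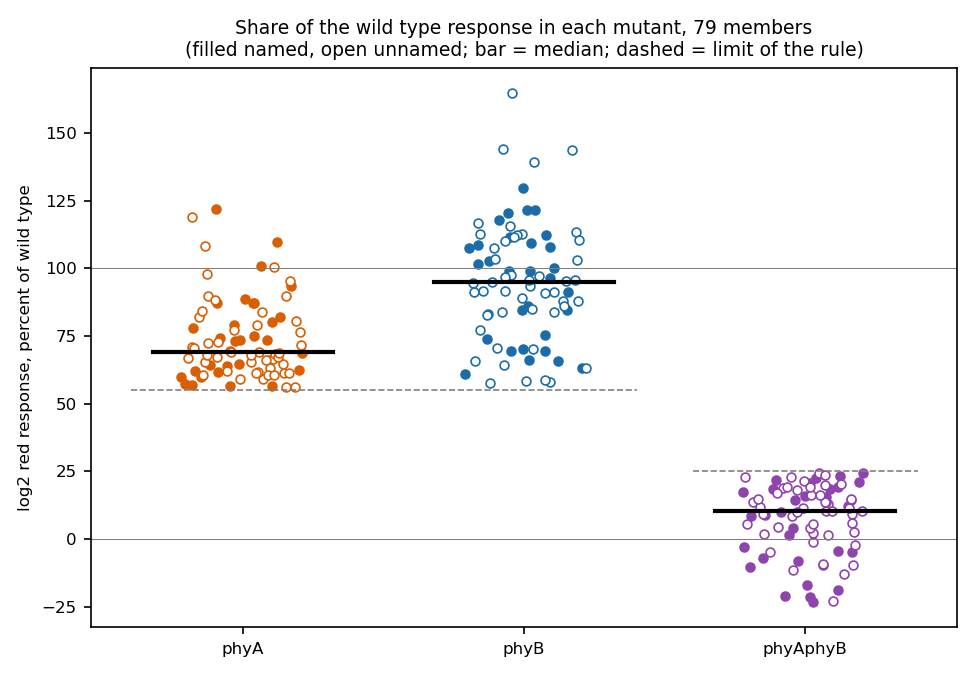
Share of the wild type log2 red response (vertical axis, percent) in phyA, phyB and phyAphyB for the 79 members, with 31 named members filled, 48 unnamed members open, the median as a bar and the limits of the rule dashed. The medians are 69%, 95.1% and 10.3%, and the phyB points reach 165%.

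All 3 red arrays lay above all 3 dark arrays for 79 members in wild type and in phyB, 74 in phyA and 16 in phyAphyB. The rule itself required this in wild type. The same share over all tested probe sets was not counted, so nothing is read from these numbers. In phyAphyB the change was above 0 for 59 members and below 0 for 20. The red phyAphyB mean was at or above the dark wild type mean for 53 members and at or above the red wild type mean for 2. In the limma fit to all arrays, which gives an adjusted p over the whole array, 79 of 79 members were called higher in red wild type seedlings, where 4.06% of all tested probe sets were called higher. In phyA 71 were called higher against 2.41% of all, in phyB 76 against 3.58%, and in phyAphyB 0 against 0.0265%. No member was called lower, where 2.39, 1.93, 2.17 and 0.278% of all were in wild type, phyA, phyB and phyAphyB. The rule used these contrasts, so nothing is read from these counts. Among the changes in phyAphyB, 7 of 79 had an unadjusted limma p under 0.05, and 2 were called with array weights and 1 without dark phyB replicate 2. The matching shares of all tested probe sets are not given, so nothing is read from these counts either.

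The dark phyA arrays differed from each other in ways that touch the phyA values. Replicate 1 had the lowest correlations of log2 signal inside any group, 0.934 with replicate 2 and 0.939 with replicate 3. Replicates 2 and 3 correlated at 0.959. The array's 25S ribosomal RNA control gave a signal of 10508 in replicate 2 and 13574 in replicate 3 of dark phyA, while the other 22 arrays gave 46.8 to 450.0. Dropping those 2 arrays leaves replicate 1 as the only dark phyA array. The median phyA share of the 79 members was then 66.8%, and the rule found 73 members, 50 of them among the 79. Of the 31 named members, 13 had a phyA share under 55% without them, and for 10 the phyA response moved by over 1.5 times. Among these 10, AT5G37790 rose and the others fell. Smaller moves went both ways. The phyA response rose from 0.82 to 1.18 for CYTC-2, 0.78 to 0.95 for AT1G61890 and 1.17 to 1.49 for AT3G14200. It fell from 1.09 to 0.92 for AT1G73480 and from 1.15 to 0.95 for AT2G46420. With the 6 phyA arrays fitted alone, the count of members called in phyA was 46 in place of 71. The share of all tested probe sets called in that fit is not given, so nothing is read from this fall. Whether the ribosomal RNA signal or the lower correlation of replicate 1 bears on the phyA values was not tested. Median signals ranged from 169.8 to 195.1 over the 24 arrays. The marker lists for seedling tissues had few named probe sets: 2 of 12 root markers, 1 of 9 for green tissue, 3 of 9 for epidermis and stomata, 0 of 6 for vasculature and 1 of 10 for seed reserves. Of these, RCA (Rubisco activase, green tissue) and ICL (isocitrate lyase, seed reserve use) read above the 40th percentile on all 24 arrays. Of the 4 markers that were tested (these and EXPA18 of root and FAMA of stomata), 0 were called in red minus dark in any genotype, with limma adjusted p of at least 0.148.

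Because the same arrays chose and measured the members, the rule was also applied to the arrays of 2 replicate numbers and the response was read on the third. Replicates 1, 2 and 3 left out in turn gave 64, 77 and 75 probe sets, of which 48, 54 and 50 were among the 79. On the arrays left out, the median wild type response of those probe sets was 1.32, 1.41 and 1.42. The held-out phyA median was 0.85, 1.05 and 0.87, which is 64.1, 74.3 and 61.5% of the wild type median. For phyB the held-out median was 1.58, 1.03 and 1.39, or 119, 73.1 and 97.4%. The double mutant gave 0.10, 0.18 and 0.29, or 7.6, 12.4 and 20.5%. In each of the 3 turns the order of the held-out medians put phyAphyB lowest, and phyB lay above wild type in 1 turn and below it in 2. In phyAphyB a red array read above the dark array of the same number for 57.8, 77.9 and 78.7% of the chosen probe sets, against 98.4, 100 and 98.7% in wild type. Same-numbered arrays were not taken as pairs, and the matching share of all tested probe sets was not counted. Nothing is read from these percentages.

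**Figure D2:**
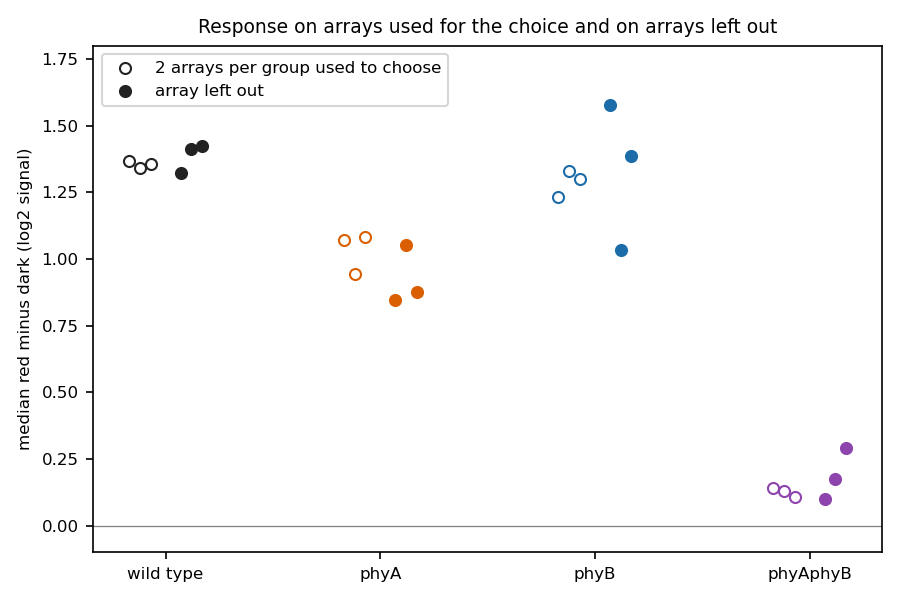
Median red minus dark log2 signal (vertical axis) in 4 genotypes for probe sets chosen on 2 arrays per group (open) and read on the array left out (filled), with 3 turns per genotype. The filled wild type points lie between 1.32 and 1.42 and the filled phyAphyB points between 0.10 and 0.29.

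The members with a known role in signalling are described first. AFR encodes an F-box protein with kelch repeats that is known as a positive component of phytochrome A signalling in far-red light. It is the only named member on the list of phytochrome signalling genes. Only 5 of the 59 listed symbols had a named probe set, so listed genes among the 48 unnamed members could not be seen. The wild type signal of AFR was 159, 152 and 141 on the 3 dark arrays and 412, 406 and 592 on the 3 red arrays. In phyA it read 110.4, 97.3 and 100.3 in the dark and 272, 372 and 202 in red light. The phyB arrays read 109, 180.4 and 124 (dark) and 504, 590.0 and 645 (red). Dark and red arrays were separate in these 3 genotypes. The phyB response (2.1 ± 0.25, limma SE) was above that of wild type (1.62 ± 0.25), a difference that was not tested. In phyAphyB the dark arrays read 145, 94.1 and 64.3 and the red arrays 106, 142 and 124, where the groups overlap.

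AT3G16800 encodes a phosphatase of the 2C type, a family that removes phosphate from serine and threonine residues. Families of genes known only by a locus tag are background knowledge here, since the tables used name the locus alone. Its signal went from 326, 335 and 306 in dark to 944, 893 and 1130 in red wild type seedlings. The phyA arrays read 376, 388 and 499 (dark) and 1006, 947 and 1038 (red), and the phyB arrays 433, 423 and 411 (dark) and 1062, 1134 and 1059 (red). In phyAphyB it read 372, 381 and 337 in the dark and 381, 389 and 432 in red light. The red levels of wild type, phyA and phyB thus lay together near 1000, while the double mutant moved by 0.14 ± 0.11, with its lowest red array level with its highest dark one.

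AT5G37790 belongs to the protein kinase superfamily. Wild type read 702, 654 and 649.6 in the dark and 1330, 1714 and 1778 in red light. The single mutants read 1104, 1229 and 1333 (phyA) and 1630, 1747 and 1682 (phyB) in red light, from 424, 727 and 727 and 888, 898 and 983 in the dark. In phyAphyB the dark arrays (983, 964 and 954) and red arrays (1036, 1052 and 919.8) overlapped. Dark phyAphyB arrays all lay above dark wild type arrays and below red ones. Without dark phyA replicates 2 and 3 the phyA response was 1.52 in place of 1.00.

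AT4G16750, a transcription factor gene of the AP2/ERF family, responded by 0.97 ± 0.24 in wild type, 1.07 in phyA, 0.81 in phyB and 0.24 in phyAphyB, close to the 25% limit. AT5G41400, which encodes a RING finger protein, responded by 1.26 ± 0.22 in wild type, 1.1 in phyA, 1.54 in phyB and 0.20 in phyAphyB. The ABC1-like kinase gene AT3G24190 responded by 0.99 ± 0.20 in wild type and 0.86 in phyB. Its phyA response of 0.64 became -0.00103 without dark phyA replicates 2 and 3, so it would not meet the rule without those arrays.

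Transport genes come next. SWEET17, a fructose transporter of the vacuole membrane, read 144, 129 and 98.2 in dark and 291, 337 and 401 in red wild type seedlings. The phyA arrays read 222, 141 and 164 (dark) and 389, 394 and 314 (red), and the phyB arrays 414, 368 and 338 (dark) and 849, 704 and 599 (red). In phyAphyB it read 603, 497 and 479 in the dark and 490.3, 403 and 409 in red light. Dark phyAphyB seedlings therefore held more of this signal than red wild type seedlings, and their change with red light was -0.28 ± 0.18. Leaving out dark phyA replicates 2 and 3 gave SWEET17 a phyA response of 0.71 in place of 1.08, under the limit of the rule.

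AT1G61890 encodes an efflux carrier of the MATE family and was the brightest named member in red wild type seedlings. Its wild type arrays read 2907, 2826 and 2530 in the dark and 7474, 7432 and 6686 in red light. The phyA arrays read 2909, 4309 and 2760 (dark) and 5482, 4931 and 6515 (red), and the phyB arrays 2315, 2207 and 2620 (dark) and 8203, 6723 and 5382 (red). Red and dark arrays were separate in both single mutants, by a smaller gap in phyA, whose share of 56.4% lies just inside the limit. In phyAphyB the dark arrays (3349, 3445 and 3656) and red arrays (4676, 4029 and 3378) overlapped. AT1G79520, a cation efflux family gene, responded by 1.18 ± 0.14 in wild type, 0.81 in phyA, 1.00 in phyB and 0.27 in phyAphyB.

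**Figure D3:**
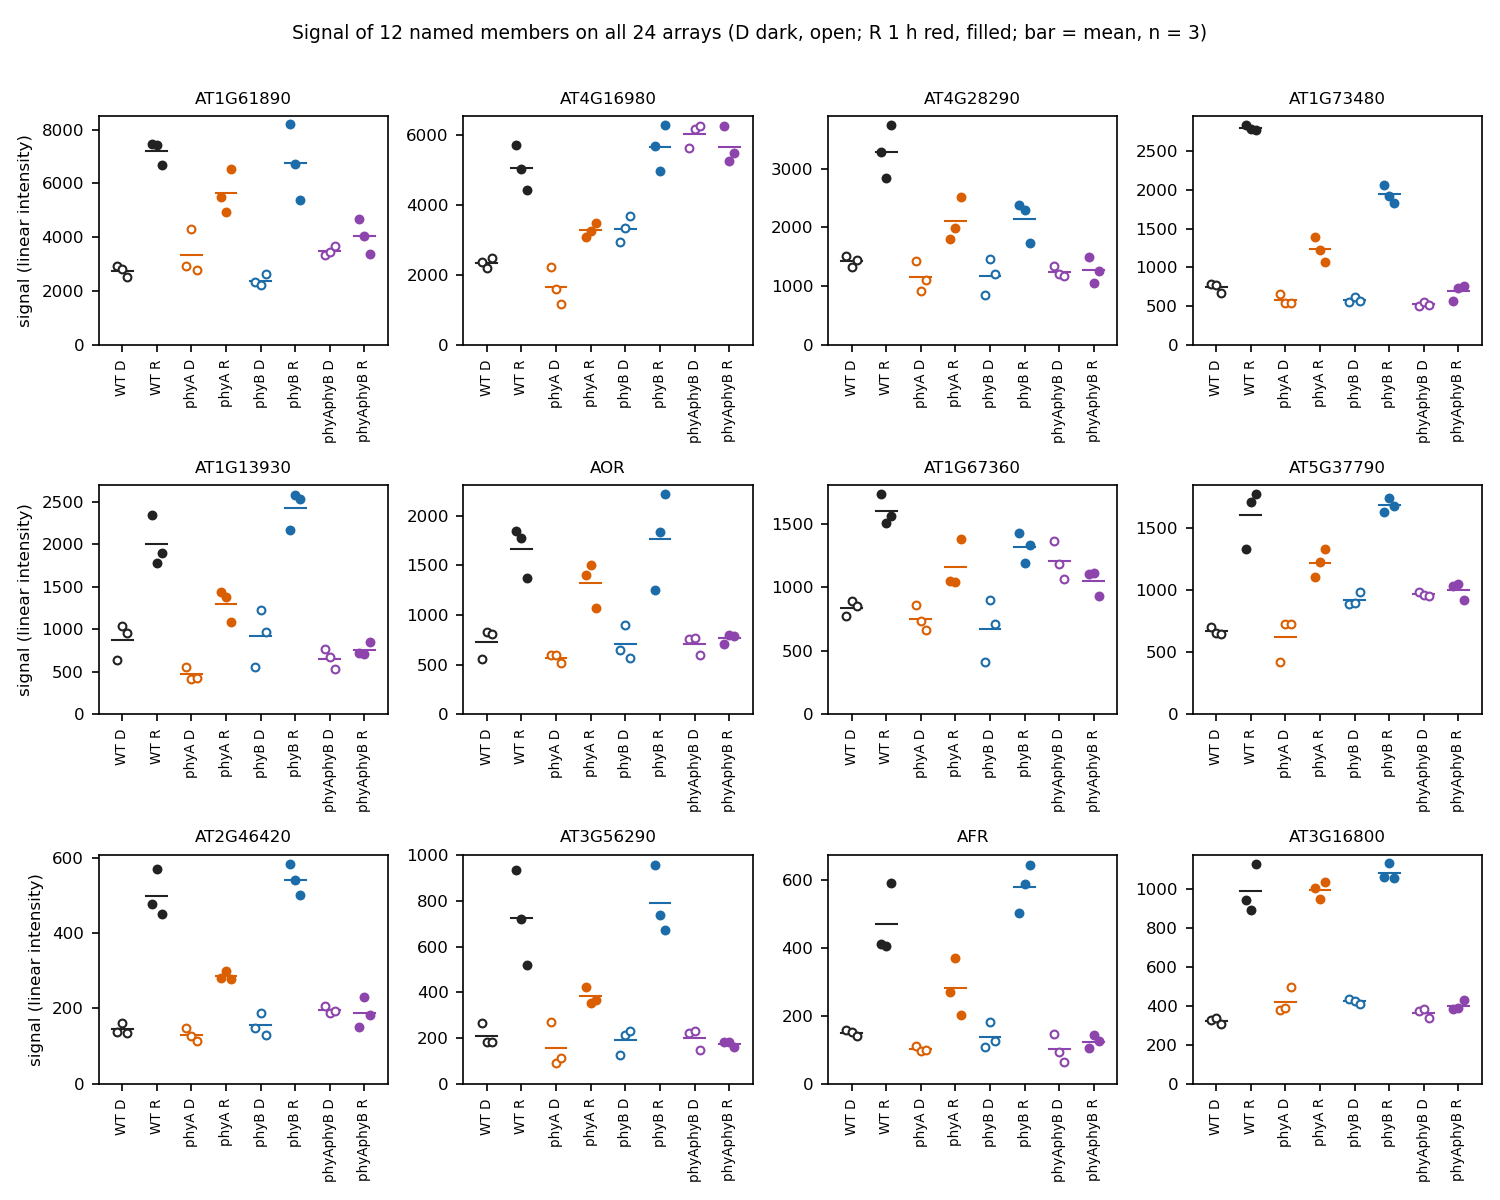
Linear signal (vertical axis) on all 24 arrays for 12 named members, the 8 brightest in red wild type seedlings and the 4 with the largest wild type response among the rest. Open points are dark and filled points red arrays, with the mean of 3 as a bar; red and dark points are separate in wild type, phyA and phyB in all 12 panels and in phyAphyB they overlap except for AT3G16800 and AT1G73480.

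Among genes of respiration and redox metabolism, CYTC-2 encodes a mitochondrial cytochrome c and AOR a chloroplast reductase that detoxifies reactive carbonyls. CYTC-2 responded by 1.46 ± 0.15 in wild type, 0.82 in phyA, 1.44 in phyB and -0.04 in phyAphyB. Its phyB response was thus close to wild type and its phyA response just inside the limit. That phyA response was 1.18 without dark phyA replicates 2 and 3. AOR read 553, 827 and 807 in dark and 1847, 1777 and 1372 in red wild type seedlings. The phyA arrays went from 592, 599.7 and 514 to 1405, 1503 and 1072, and the phyB arrays from 649.7, 895 and 569 to 1251, 1832 and 2220. Its log2 responses of 1.20, 1.21 and 1.31 in these 3 genotypes lay within 1 SE (0.20) of each other. The phyAphyB arrays overlapped, at 760.0, 768 and 595 in the dark and 709.5, 801 and 786 in red light.

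Genes of lipid metabolism include AT1G73480, an alpha/beta hydrolase gene with the largest wild type response of the named members. Wild type read 781, 777 and 671 in the dark and 2842, 2796 and 2774 in red light, a 3.78-fold rise. phyA seedlings gave 650.5, 542 and 544 (dark) and 1398, 1230 and 1074 (red), and the phyB arrays 548, 612 and 568 (dark) and 2071, 1926 and 1834 (red). Red levels were ordered wild type, phyB, phyA and phyAphyB with no overlap between neighbours. The double mutant arrays were separate as well, at 502, 547 and 511 in the dark and 570.3, 732 and 763 in red light, a change of 0.39 ± 0.12.

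AT1G67360 encodes a protein of the lipid droplet surface. Its wild type arrays read 774, 889.8 and 853 in the dark and 1736, 1507 and 1562 in red light. In phyA the arrays read 857, 733 and 666 (dark) and 1046, 1039 and 1384 (red), and the phyB arrays 408, 896 and 714 (dark) and 1430, 1191 and 1334 (red). Red arrays lay above dark ones in these genotypes. In phyAphyB the dark arrays (1365, 1183 and 1065) overlapped the red ones (1101, 1111 and 931), with a change of -0.20 ± 0.19. AT5G19850, another alpha/beta hydrolase gene, responded by 1.41 ± 0.27 in wild type, 0.87 in phyA, 1.36 in phyB and 0.12 in phyAphyB.

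Cell wall and glycan genes were AT4G16980, for an arabinogalactan protein (a heavily glycosylated protein of the cell surface), and AT1G27120, for a galactosyltransferase of such proteins. AT4G16980 read 2362, 2195 and 2472 in dark and 5726, 5032 and 4420 in red wild type seedlings. Signals in phyA were 2227, 1592 and 1154 (dark) and 3090, 3256 and 3495 (red), and the phyB arrays 2934, 3348 and 3691 (dark) and 5680, 4976 and 6297 (red). In phyAphyB it read 5637, 6178 and 6278 in the dark and 6255, 5273 and 5481 in red light, so the dark double mutant arrays overlapped the upper end of the red wild type arrays and exceeded the dark wild type ones. Its phyA response was 0.56 in place of 1.03 without dark phyA replicates 2 and 3, under the limit of the rule. AT1G27120 responded by 1.22 ± 0.20 in wild type, 0.76 in phyA, 0.92 in phyB and 0.26 in phyAphyB.

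Among genes for protein turnover, AT1G75460 and AT1G19740 both encode proteins with a LON protease domain, and AT3G14200 encodes a DnaJ-type chaperone partner. AT1G75460 responded by 1.18 ± 0.16 in wild type, 0.71 in phyA and 1.29 in phyB. AT1G19740 responded by 1.07 ± 0.13, 0.80 and 0.65 in the same genotypes. The related pair thus leaned opposite ways, with the lower single-mutant response in phyA for the first and in phyB for the second, and this difference was not tested. For AT1G75460 the phyA response was 0.34 without dark phyA replicates 2 and 3, under the limit of the rule. In phyAphyB they changed by 0.19 and 0.16. AT3G14200 responded by 1.33 ± 0.25 in wild type, 1.17 in phyA, 1.49 in phyB and 0.16 in phyAphyB.

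AT1G13930, a gene known for a role in salt tolerance, had the largest phyA share of the 79 members (122%). Wild type read 638, 1040 and 957 in the dark and 2346, 1784 and 1898 in red light. For phyA the values were 557, 419 and 426 (dark) and 1437, 1385 and 1085 (red), and the phyB arrays 557, 1227 and 963 (dark) and 2172, 2585 and 2530 (red). The large phyA share thus came with low dark phyA arrays, all below the dark wild type arrays, and red phyA arrays that were also all below the red wild type ones. In phyAphyB the arrays read 762, 677 and 527 (dark) and 714, 708 and 854 (red), which overlap.

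AT3G57020 encodes a protein of the strictosidine synthase-like family. It read 369, 398 and 352 in dark and 1339, 873 and 928 in red wild type seedlings, and 138, 139 and 126 in dark and 194, 177 and 134 in red phyAphyB. The phyA arrays gave 306, 240.2 and 359.8 (dark) and 621, 589 and 674 (red), and the phyB arrays 223, 229 and 196 (dark) and 598, 609 and 736 (red). Dark levels went down from wild type through phyB to phyAphyB. AT3G57010, of the same family, met every criterion but the phyB one, with a phyB share of 37.7%.

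Several members carry a locus tag with no role given here. AT2G46420 read 138, 160.4 and 134 in dark and 477, 569 and 451 in red wild type seedlings, with 281, 299 and 276 in red phyA from 147, 126 and 114 in the dark. In phyB it went from 148, 188 and 129 to 583, 539.9 and 499, and in phyAphyB from 205, 189 and 193 to 149, 229 and 181. Red phyB arrays spanned a like range to red wild type arrays, and red phyA arrays lay below both.

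AT3G56290 read 266, 183 and 181 in dark and 936, 723 and 519.9 in red wild type seedlings. phyA seedlings gave 268, 88.7 and 112 (dark) and 424, 355 and 366 (red), the phyB arrays 126, 212 and 230.5 (dark) and 958, 738 and 673 (red), and the phyAphyB arrays 223, 231 and 149 (dark) and 181, 182 and 159.6 (red). Its replicates spread widely (SE 0.30), and its phyA response of 1.46 was 0.51 without dark phyA replicates 2 and 3.

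AT4G28290 went from 1516, 1319 and 1448 in dark to 3290, 2838 and 3755 in red wild type seedlings. In phyA the arrays read 1421, 917 and 1103 (dark) and 1800, 1987 and 2517 (red), the phyB arrays 851, 1456 and 1213 (dark) and 2387, 2291 and 1728 (red), and the phyAphyB arrays 1337, 1208 and 1170 (dark) and 1493, 1048 and 1256 (red). Both single mutants responded by 0.88 and the double mutant by 0.02. The phyA response was 0.55, under the limit of the rule, without dark phyA replicates 2 and 3. The wild type responses of the remaining named members were 1.46 for AT1G13670, 1.27 for AT1G14345, 1.20 for AT5G19970, 1.15 for AT3G15760, 1.14 for AT5G57345, 0.95 for AT5G62130 and 0.91 for the AAA-type ATPase gene AT1G14460. Without dark phyA replicates 2 and 3 the phyA response was 0.35 in place of 0.87 for AT1G13670, 0.36 in place of 0.54 for AT5G62130 and 0.45 in place of 0.85 for AT5G57345, all under the limit of the rule. AT1G73480, AT5G19850 and AT1G67360 were also under it in that setting, with shares of 47.7, 54.9 and 45%.

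**Figure D4:**
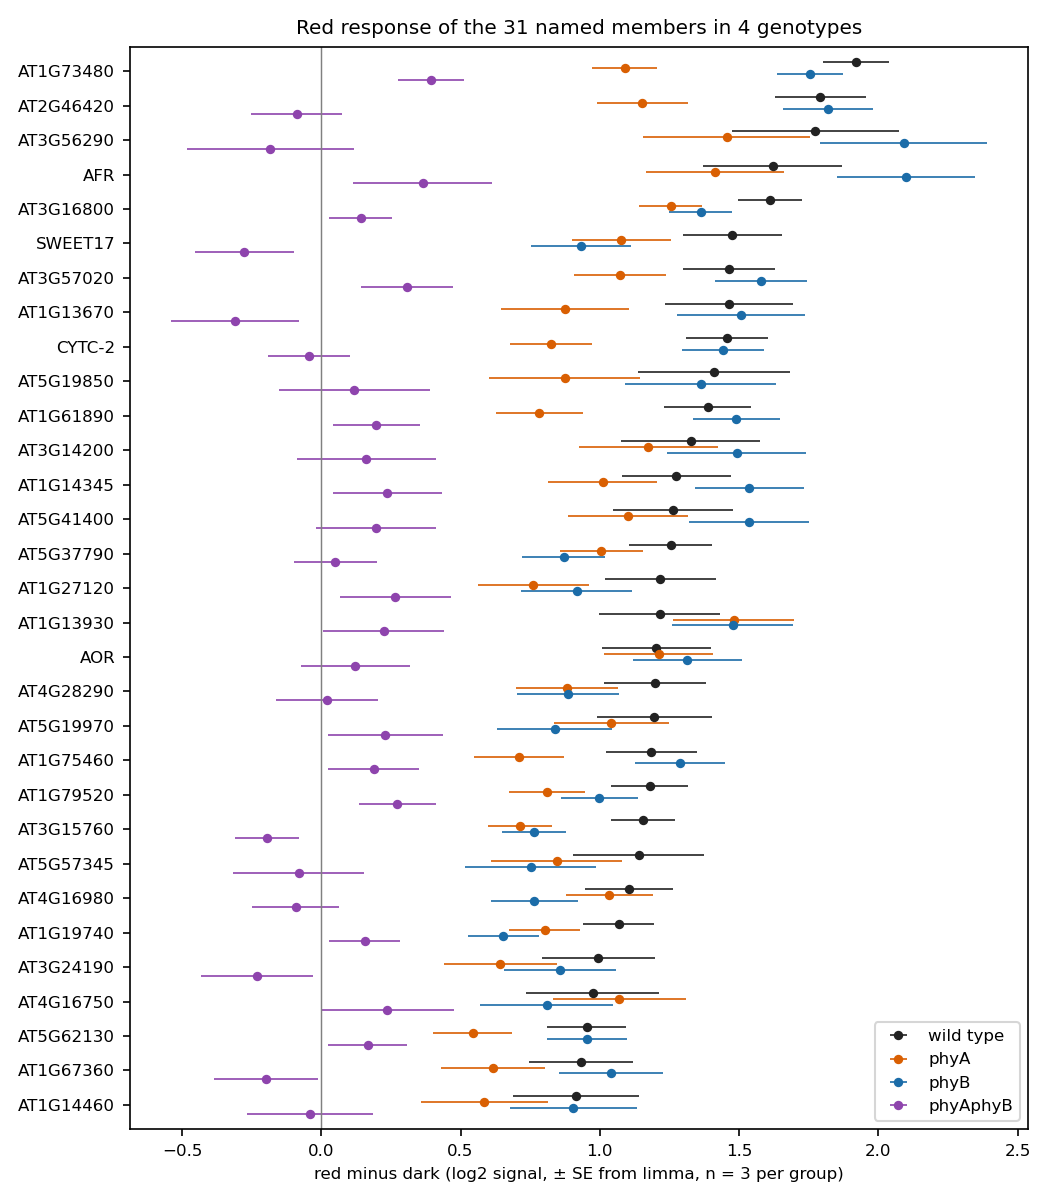
Red minus dark log2 signal (horizontal axis, with the limma SE as a bar) for the 31 named members in 4 genotypes, ordered by the wild type response. The phyAphyB points lie between -0.31 and 0.39, and the phyA point is left of the phyB point for 23 of the 31.

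The 48 unnamed members included the largest responses. 15 of them responded by at least 2 in wild type, and none of the 31 named members did, whose wild type responses ended at 1.92. Their median shares (68.6% in phyA, 94% in phyB and 10.4% in phyAphyB) lay close to those of the named members (73.3, 98.9 and 10.1%). The probe set with the largest response, 252123_at, read 68, 52.8 and 89.4 in dark and 992, 862 and 766 in red wild type seedlings. In phyB it went from 54.5, 64.7 and 84 to 911, 682 and 692, in phyA from 67, 25.1 and 7.5 to 134, 182 and 116, and in phyAphyB from 75.6, 51.8 and 38.6 to 67.6, 39.9 and 63. Red phyA arrays all lay below red wild type arrays, and the dark arrays of wild type and of phyA were all under the 40th percentile of every array. Its size of response and its phyA share of 71% therefore rest on dim dark signals. The next, 258321_at, read 248, 177 and 166 (dark) and 2286, 2443 and 1956 (red) in wild type, 288, 121 and 139 (dark) and 737, 776 and 642 (red) in phyA, 124, 246 and 129 (dark) and 1777, 1744 and 1579 (red) in phyB, and 196, 195 and 160.2 (dark) and 188, 163 and 238 (red) in phyAphyB.

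On the level reached in red light, all 3 phyA arrays lay below all 3 wild type arrays for 59 of the 79 members. The phyB arrays did for 20, and the phyAphyB arrays did for 75. A rule that asks for high red wild type signals favours this order. The share over all tested probe sets was not counted, so nothing is read from these numbers. The loss of response in the double mutant was larger than the losses of both single mutants added together for all 79 members, with a median loss of 1.19 in phyAphyB, 0.39 in phyA and 0.10 in phyB. The limits of the rule favour this, so it describes the choice.

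Values near the limits show how finely the rule divides. The wild type responses just inside the limit of 0.9 were 0.91, 0.91, 0.91 and 0.93, and those just outside were 0.90, 0.90, 0.90 and 0.87, the last of them UPB1. The wild type red log2 means just inside were 7.65 to 7.76 and just outside 7.16, 6.96, 6.88 and 6.62. The phyA shares just inside were 56, 56.1, 56.4 (AT1G61890) and 56.6% (CYTC-2), and just outside 55, 55, 54.7 and 54% (AT1G80130). The phyB shares just inside were 57.8, 58.2, 58.4 and 58.7%, and just outside 53.4, 46.9 (AT3G52360), 46.7 and 37.7%. The phyAphyB shares just inside were 24.5, 24.3, 23.6 and 23.2%, and just outside 25.2 (AT5G47610), 25.9, 26.6 and 26.8% (UGT71B1). When 1 array at a time was left out, the rule found between 71 and 94 probe sets, and 25 of the 79 members, 9 of them named, met it in all 24 turns. Those 9 were AT4G16980, AT5G41400, AT5G37790, AT3G56290, AT4G28290, AT3G16800, AT1G19740, AT2G46420 and AOR. Without dark phyA replicates 2 and 3 together, 4 of these 9 (AT4G16980, AT3G56290, AT4G28290 and AT2G46420) had a phyA share under 55%.

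Dark levels are the measure that the rule did not fix, although the dark arrays enter the responses, so that a low dark level of a single mutant or of wild type and a high dark level of the double mutant favour membership. The dark mutant comparisons share the 3 dark wild type arrays. In dark phyAphyB 8 members were higher and 7 lower than in dark wild type, 19% of the 79 against 11.2% of all tested probe sets called in either direction (5.73% higher and 5.5% lower). In dark phyB 3 were higher and 2 lower, 6.33% against 7.23% of all (3.64% higher and 3.59% lower). In dark phyA 0 were higher and 9 lower, 11.4% against 4.52% of all (2.31% higher and 2.21% lower). The median difference over the members was 0.01 in phyAphyB, -0.04 in phyB and -0.16 in phyA, against 0.02 over all tested probe sets in each.

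SWEET17 had the largest dark difference of the members. Its dark signal was 124 ± 23.4 in wild type and 526 ± 66.9 in phyAphyB (SD, n = 3), a difference of log2 2.1 ± 0.18, limma adjusted p = 9.3e-09. In dark phyB it was 373 ± 38.2 (log2 1.60 ± 0.18, limma adjusted p = 1.2e-06), and in dark phyA 176 ± 41.5 (log2 0.50 ± 0.18, limma adjusted p = 0.11), which did not pass. AT4G16980 read 2343 ± 139.7 in dark wild type and 6031 ± 345 in dark phyAphyB (log2 1.36 ± 0.16, limma adjusted p = 1e-06), and 3324 ± 379 in dark phyB (log2 0.50 ± 0.16, limma adjusted p = 0.053), where it did not pass. AT3G57020 was lower, from 373 ± 23.4 in wild type to 134 ± 7.01 in phyAphyB (log2 -1.47 ± 0.16, limma adjusted p = 6.7e-07) and 216 ± 17.4 in phyB (log2 -0.79 ± 0.16, limma adjusted p = 0.0026). For these 3 genes the dark phyAphyB arrays did not overlap the dark wild type arrays.

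**Figure D5:**
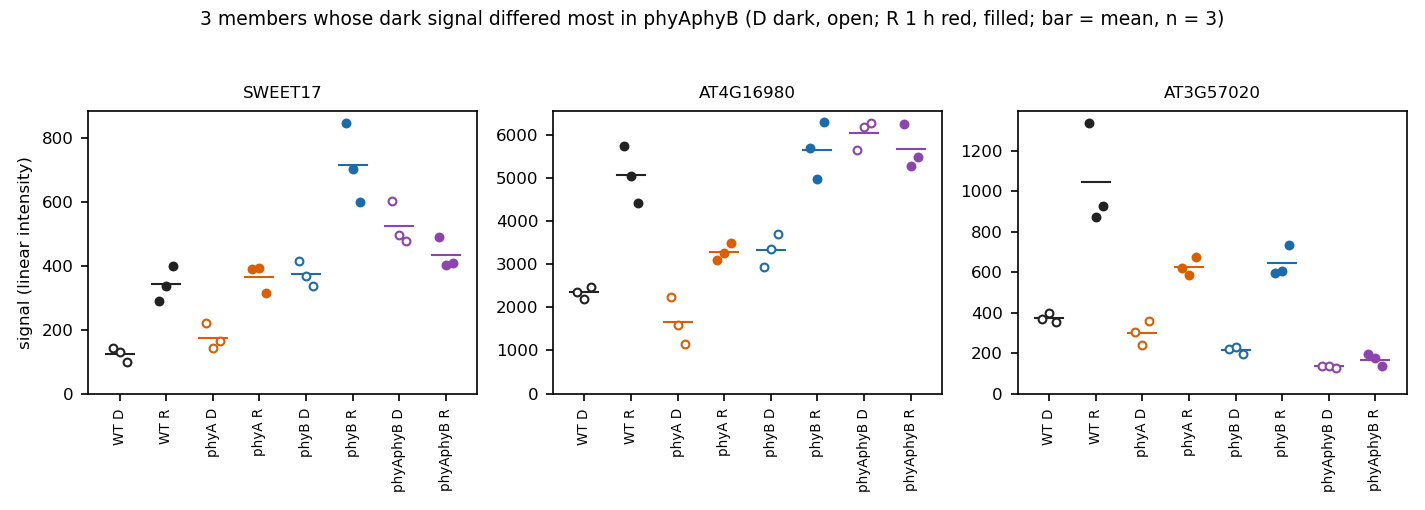
Linear signal (vertical axis) on all 24 arrays for SWEET17, AT4G16980 and AT3G57020, dark arrays open and red arrays filled, with the mean of 3 as a bar. The dark phyAphyB arrays lie above the dark wild type arrays for SWEET17 and AT4G16980 and below them for AT3G57020.

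Smaller dark differences were called in phyAphyB for AT1G73480 (log2 -0.51 ± 0.12, limma adjusted p = 0.0043), AT5G37790 (log2 0.53 ± 0.15, limma adjusted p = 0.019) and AT1G79520 (log2 0.52 ± 0.14, limma adjusted p = 0.014). The call of AT5G37790 was lost without dark wild type replicate 2 or 3 or dark phyAphyB replicate 1 or 2 (adjusted p up to 0.068). That of AT1G79520 was lost without dark wild type replicate 3 or dark phyAphyB replicate 1 or 2 (adjusted p up to 0.089) and from the compared groups alone. In dark phyB, AT3G16800 was higher (log2 0.39 ± 0.11, limma adjusted p = 0.035), a call lost without any 1 of the 6 arrays compared (adjusted p up to 0.14), under quantile normalization (0.058) and with the compared groups alone (0.11). The count of 15 in phyAphyB was 8 without dark wild type replicate 3 and 8 without dark phyAphyB replicate 2. The count of 5 in phyB was 9 without dark phyA replicate 1. The shares of all tested probe sets called in these fits are not given.

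In dark phyA the lower members were 3 named and 6 unnamed probe sets. AT3G14200 read 242 ± 65.6 in dark wild type and 120.2 ± 25.1 in dark phyA (log2 -0.99 ± 0.25, limma adjusted p = 0.025), AT1G13930 read 878 ± 212 and 467 ± 77.5 (log2 -0.89 ± 0.22, limma adjusted p = 0.021), and AT4G16980 read 2343 ± 139.7 and 1658 ± 539.5 (log2 -0.55 ± 0.16, limma adjusted p = 0.045). These calls rest on few arrays. The count of 9 became 0 with the compared groups alone. It was 17 without dark phyA replicate 1, 1 without replicate 2 and 0 without replicate 3. Dropping replicate 1, 2 or 3 of dark wild type gave 2, 3 and 3. The shares of all tested probe sets called in these alternative fits are not given. Whether the members moved more than the whole array was not tested. Without dark phyA replicates 2 and 3, whose ribosomal RNA signal was high, the median over the members was -0.00469. In that setting, with 1 dark phyA array, AT4G16980 differed by -0.07, AT1G13930 by -0.63 and AT3G14200 by -1.30.

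Some named members are near neighbours in the gene order of the TAIR10.1 table. 13 protein-coding genes lie between AT1G14345 and AT1G14460 and 13 between AT5G19850 and AT5G19970, 25 between AT1G13670 and AT1G13930, and 29 between AT4G16750 and AT4G16980. These distances are a description and were not set against other gene lists.

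The lists held 59 symbols for phytochrome signalling, 34 for the clock, 31 for flavonoid and phenylpropanoid synthesis and 35 for early plastid genes. Some symbols are other names of the same gene, and GI is on both the phytochrome and the clock list. Of the listed genes, 10 had a tested named probe set. AFR is the member among them. Of the other 9, 3 rose and 1 fell in wild type, where 6.45% of all tested probe sets were called in either direction, 2 rose and 1 fell in phyA (4.34%), 3 rose and 0 fell in phyB (5.75%), and 0 were called in phyAphyB (0.305%). The count in phyA was 1 in place of 3 without dark phyA replicates 2 and 3. HYH, a bZIP factor related to HY5, rose by 3.75 ± 0.63 in wild type and 3.11 ± 0.63 in phyB, with 2.16 in phyA (adjusted p = 0.053) and 0.51 in phyAphyB. The clock gene GI rose by 0.87, 0.88 and 1.12 in wild type, phyA and phyB, with 0.45 in phyAphyB (limma adjusted p = 0.29). UGT78D2, a flavonoid glucosyltransferase gene, rose by 1.95, 0.92 and 1.86 in the same genotypes, with -0.04 in phyAphyB. FHL, which helps carry phytochrome A into the nucleus, fell by 0.86 in wild type and by 0.84 in phyA. Its change was -0.75 in phyAphyB (limma adjusted p = 0.16) and -0.56 in phyB (limma adjusted p = 0.098), which did not pass, and the difference between genotypes was not tested. SCL21, UF3GT, HEMA2, LHCB4.1 and LHCB4.2 did not pass in any genotype.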

How the data were processed

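The deposited values are linear signal intensity values, 1 per probe set and array, made by the authors with MAS5 per the submitters' processing notes, with no version stated. With the top and bottom 2% of values removed, the 24 arrays had means of 500.038 to 500.044, so the values were kept as scaled. The number of arrays limits the precision. Values were put on a log2 scale with no pseudocount added, and 64 control probe sets were left out. Tests covered the 15085 probe sets that were above the 40th percentile of their own array at least 3 times. The 8 group means were estimated in 1 fit over the 24 arrays (limma 3.58.1, R 4.3.3, eBayes with an intensity trend), two-sided, with Benjamini-Hochberg adjustment over all tested probe sets and calls at an adjusted p under 0.05. The p-values measure spread between these biological replicates.

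Symbols came from the probe table and were updated through NCBI gene identifiers (TAIR10.1 table, used for names and gene order only). Of 22746 probe sets 13513 had 1 gene, 503 several and 8730 none. The listed symbols CHI and FDH belong in that table to other genes and were left out after this was seen. All named members are described: 12 with every array, the 8 brightest in red wild type seedlings and the 4 with the largest response among the rest. SWEET17, AT3G57020 and the unnamed 252123_at and 258321_at were given in full after their values had been seen. In the dark comparisons up to 4 called named members each way are named. The members and lists were chosen with earlier results of these data known. Alternatives were quantile normalization, no filter, a 60th percentile filter, a pseudocount of 10 (the median over arrays of the 10th percentile of signal), no intensity trend, array weights, the compared groups alone, a replicate block, and leaving out arrays. Sequences were not used here.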

Additional observations from a re-analysis of the deposited data

How the results depend on the processing

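Members of the rule numbered 80 under quantile normalization (73 shared with the 79) and 77 with a pseudocount (76 shared), and 71 to 94 when 1 array was left out. Leaving out 1 array, or choosing without a replicate and reading on it, gave median shares of 61.5 to 75% in phyA, 73.1 to 119% in phyB and 7.6 to 20.5% in phyAphyB. Members called in red minus dark ranged from 76 to 79 in wild type, 60 to 73 in phyA, 69 to 77 in phyB and 0 to 1 in phyAphyB when 1 array was left out. Dark calls ranged from 0 to 17 in phyA, 4 to 9 in phyB and 8 to 17 in phyAphyB, and dark medians from -0.245 to -0.101, -0.115 to 0.00815 and -0.0232 to 0.118. For the alternative fits of this section the share of all tested probe sets called is not given, so their counts are not read as a property of the members.

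The compared groups alone gave 46 calls in red minus dark phyA and 0 in dark phyA. Without dark phyA replicates 2 and 3, the pair with a bright ribosomal RNA control, there were 44 calls in red minus dark phyA, 1 in red minus dark phyAphyB, 2 in dark phyA, 8 in dark phyB and 1 of 9 list genes in phyA, the dark phyA median was -0.00469, and the phyA response of AT3G24190 turned to -0.00103. In that fit the lone dark phyA array is assumed to vary like the other groups. Array weights gave 2 calls in red minus dark phyAphyB, 19, 11 and 26 in dark phyA, phyB and phyAphyB, and 1 list gene in phyAphyB. No filter and no intensity trend each gave 5 in dark phyA, and the 60th percentile filter 9 of 71 in dark phyB. The cause of these shifts was not tested.

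With the replicate block, members called were 79, 72, 75 and 0 in red minus dark wild type, phyA, phyB and phyAphyB, and 9, 6 and 16 in dark phyA, phyB and phyAphyB. The call of AT4G16980 in dark phyA (limma adjusted p = 0.055) was lost there, so the block changed 1 of the named dark calls. Deviations of same-numbered arrays had a median correlation of -0.0004 (-0.26 to 0.28 over 84 pairs), and 6 of 24 arrays matched best with one of their own number, so the numbers were not taken as pairs. List genes called outside the members ranged from 4 to 5 in wild type, 3 to 4 in phyA, 3 to 4 in phyB and 0 to 1 in phyAphyB when 1 array was left out. Motif shares in promoters, planned with a second window, were not run, since no promoter sequence was used here.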
